A study of Mus musculus with 9 samples.

Results

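The transcripts of Ppara, Acaa2 and Apoe, genes of lipid metabolism, were read on a mouse circular RNA array by 3 probes, 1 per gene. They are 3 of the 50 mRNA probes among the 14330 probes of the array that are not control spots, and were chosen by the transcript accession in the probe's row (NM_011144 for Ppara, NM_177470 for Acaa2 and NM_009696 for Apoe). Each probe was printed as 10 spots. All 3 probes passed the filter on dim probes described with the first comparison. The samples were mouse intestinal tumours in 3 groups of 3 arrays, named CTR, HFD and HFD+Abx. HFD is a high-fat diet, Abx is kept as the titles write it, and strain, age, sex and how the tumours arose are not given in the sources used here. All 9 RNA samples had been treated with RNase R, an enzyme that digests linear RNA, so an mRNA probe here read what was left after that step. Whether the 3 arrays within a group stand for different animals is not stated. The p-values then reflect only how far these 9 samples spread, which may be technical.

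Fatty acids are broken down in mitochondria and peroxisomes, and many of the genes for this are switched on by PPAR alpha, a nuclear receptor encoded by Ppara that binds fatty acids. In the gut it responds to dietary fat. Acaa2 encodes a mitochondrial thiolase that carries out the last, chain-shortening step of fatty acid oxidation. Apoe encodes apolipoprotein E, which carries lipid in blood lipoproteins and is made by liver and macrophages among other cells. Cpt1a, also on the array, encodes the enzyme that commits long-chain fatty acids to mitochondrial import.

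No difference between groups passed the threshold for any of the 3 genes. Apoe and Acaa2 were well above background on all 9 arrays and lay at close to the same mean in CTR, HFD and HFD+Abx. On each array, though, 1 or 2 of 15 probes named as negative were brighter than Acaa2. Of those 15, 8 were themselves well above background on all 9 arrays. Ppara was faint, with its highest mean in HFD and its lowest in HFD+Abx, and its signal lay among those of probes named as negative. Levels below are log2 of the processed signal, averaged over spots, relative to the 75th percentile of the circRNA probes on that array. A value of 0 therefore means as bright as that percentile, and a difference of 1 is a 2-fold difference in signal.

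The tissue label could not be checked on these arrays. Of 48 marker genes listed for epithelium, macrophages, lymphocytes, fibroblasts, muscle, fat, endothelium and liver, only Apoe has a named probe, as 1 of 8 macrophage genes. A lower level in such bulk samples cannot be told apart from fewer cells of a type. Of 14236 circRNA probes, 12544 to 13478 were detected above background, depending on the array. From the scan identifiers, HFD+Abx 2 and 3 lay on a slide of their own and the other 7 arrays shared a slide. The first number of the array barcode was taken as the position on the slide and is called position column here. Whether it marks a column or a row was not checked. That number was 1 for CTR 1, 2 and 3 and for HFD 1. It was 2 for HFD 2 and 3 and for HFD+Abx 1, 2 and 3.

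**Figure D1:**
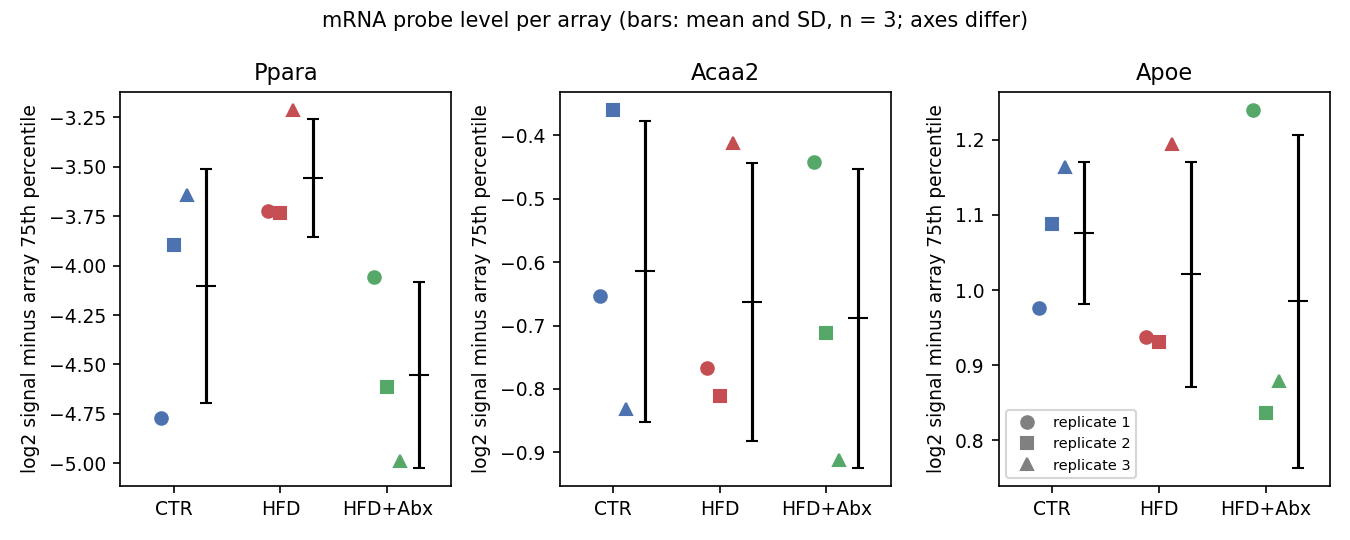
Level of the Ppara, Acaa2 and Apoe probes on each array (log2 processed signal relative to the 75th percentile of that array's circRNA probes), by group; points are arrays, with the symbol for the replicate number, and the black bar is the mean with its SD (n = 3). The 3 HFD arrays lie above the 3 HFD+Abx arrays for Ppara, whereas the groups overlap for Acaa2 and Apoe; the vertical axes differ.

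Ppara is the receptor of the set and was the faintest. Its levels were -4.77, -3.90 and -3.64 in CTR 1, 2 and 3. In HFD 1, 2 and 3 they were -3.72, -3.73 and -3.21. In HFD+Abx 1, 2 and 3 they were -4.06, -4.61 and -4.99. HFD 3 was the highest array and HFD+Abx 3 the lowest, every HFD array lay above every HFD+Abx array, and CTR overlapped both, with CTR 1 among the HFD+Abx arrays and CTR 3 above HFD 1 and 2. The means were -3.56 ± 0.30 in HFD, -4.10 ± 0.59 in CTR and -4.55 ± 0.47 in HFD+Abx (SD, n = 3).

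The spots show how near the detection limit Ppara was. The probe counted as well above background on an array when over 50% of its spots did, which held on 3 HFD arrays, 2 CTR arrays and 1 HFD+Abx array. Of its 10 spots, 4 were well above background on CTR 1, 3 on HFD+Abx 2 and 0 on HFD+Abx 3, and all 10 on each of the other 6 arrays. These 3 arrays also had the lowest levels and the widest spread over spots, with SDs of 0.58, 0.35 and 0.65, against 0.12 to 0.21 on the other 6. The 3 low arrays are thus also the 3 measured least precisely.

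Before background subtraction the Ppara spots hardly differed between CTR and HFD+Abx. The median spot read 20, 21 and 21.8 scanner units in CTR 1, 2 and 3. It read 21, 22 and 27.5 in HFD 1, 2 and 3, and 20, 22 and 22.3 in HFD+Abx 1, 2 and 3. Only HFD 3 stood apart from the other 8 arrays in this raw reading. The local background beside the same spots was 13, 11 and 11.5 in CTR 1, 2 and 3. It was 11.5, 12.5 and 12 in HFD 1, 2 and 3 and 12, 14 and 14 in HFD+Abx 1, 2 and 3. Local background was thus highest on the 2 arrays of the second slide, where the processed Ppara signal was among the lowest.

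**Figure D2:**
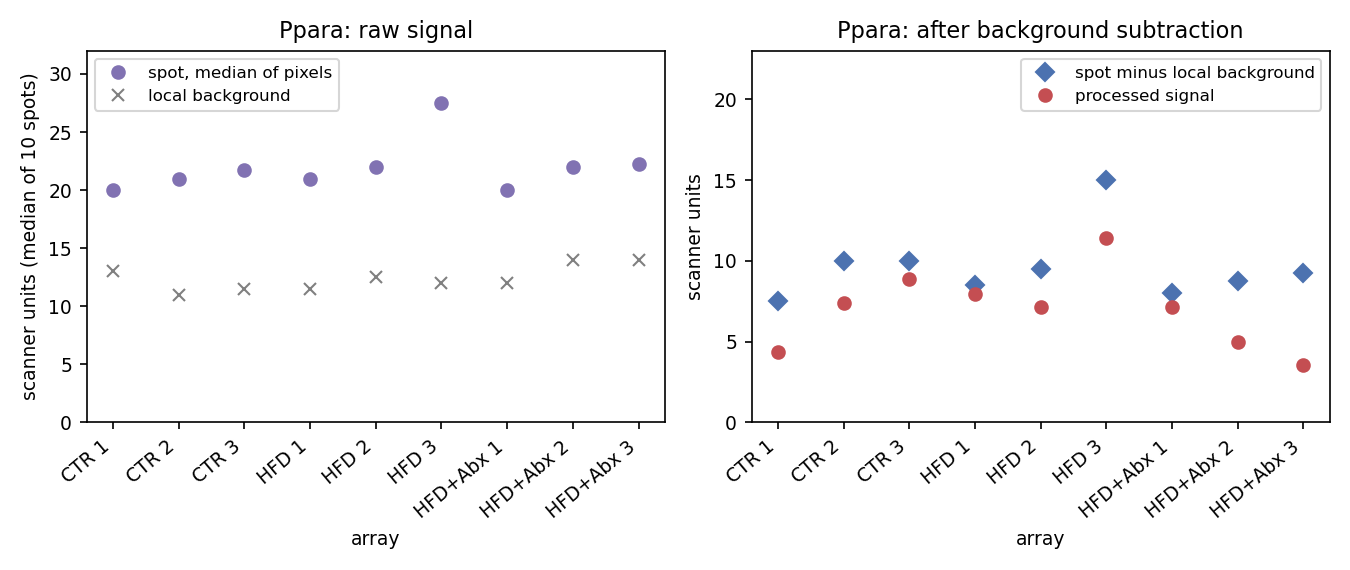
Ppara spots on each array in scanner units. Left: median of the spot's pixels and of its local background (median over 10 spots). Right: median over spots of the spot minus its local background, and the geometric mean of the scanner software's processed signal. The spot readings of HFD+Abx 1, 2 and 3 (20 to 22.3) lie within 1 unit of the range of CTR, while their processed signals fall to 3.59 on HFD+Abx 3.

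Plain subtraction of the local background left 8, 8.75 and 9.25 units for Ppara in HFD+Abx 1, 2 and 3, where the processed signal was 7.17, 4.96 and 3.59. In HFD 1, 2 and 3 the same subtraction left 8.5, 9.5 and 15 units, where the processed signal was 7.96, 7.16 and 11.4. In CTR 1, 2 and 3 it left 7.5, 10 and 10 units, against 4.37, 7.39 and 8.85. The order of the 3 HFD+Abx arrays therefore turned with the way background was removed, and HFD 3 was the highest array under both.

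The negative probes of the array are 15 probes of 10 spots each whose names mark them as negative for mouse. On each array 4 to 10 of the 15 were brighter than Ppara, with the fewest on HFD 3 and the most on CTR 1. The brightest negative probe read 107 to 224 units across arrays and the median one 6.06 to 9.45, while Ppara read 3.59 to 11.4. Of the 15, 8 were well above background on all 9 arrays. Ppara signal was thus within the range given by probes named as negative.

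Acaa2, the thiolase, read between the bright and the faint probe. Its levels were -0.65, -0.36 and -0.83 in CTR 1, 2 and 3. In HFD 1, 2 and 3 they were -0.77, -0.81 and -0.41, and in HFD+Abx 1, 2 and 3 they were -0.44, -0.71 and -0.91. Each group held 1 array near -0.4 and 1 below -0.8, so the groups overlapped throughout. The means were -0.61 ± 0.24 in CTR, -0.66 ± 0.22 in HFD and -0.69 ± 0.24 in HFD+Abx (SD, n = 3). Its processed signal was 54.3 to 87.8 units, and all 10 spots were well above background on every array. Even so, 2 of the 15 negative probes were brighter than Acaa2 on 8 arrays, and 1 was on HFD 3.

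Apoe, the lipoprotein component, was the brightest of the 3. Its levels were 0.98, 1.09 and 1.16 in CTR 1, 2 and 3. In HFD 1, 2 and 3 they were 0.94, 0.93 and 1.19, and in HFD+Abx 1, 2 and 3 they were 1.24, 0.84 and 0.88. HFD+Abx held both the highest and the lowest array, with HFD+Abx 1 apart from HFD+Abx 2 and 3, which share the second slide. The means were 1.08 ± 0.09 in CTR, 1.02 ± 0.15 in HFD and 0.99 ± 0.22 in HFD+Abx (SD, n = 3). Its processed signal was 182 to 282 units and lay above all 15 negative probes on every array. On CTR 1 the margin was small, with 234 units for Apoe and 224 for the brightest negative probe. Against the circRNA probes of the same array, Apoe stood at percentile 83.8 to 87.2 of signal, Acaa2 at 61.5 to 70.2 and Ppara at 5.15 to 20.7.

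**Figure D3:**
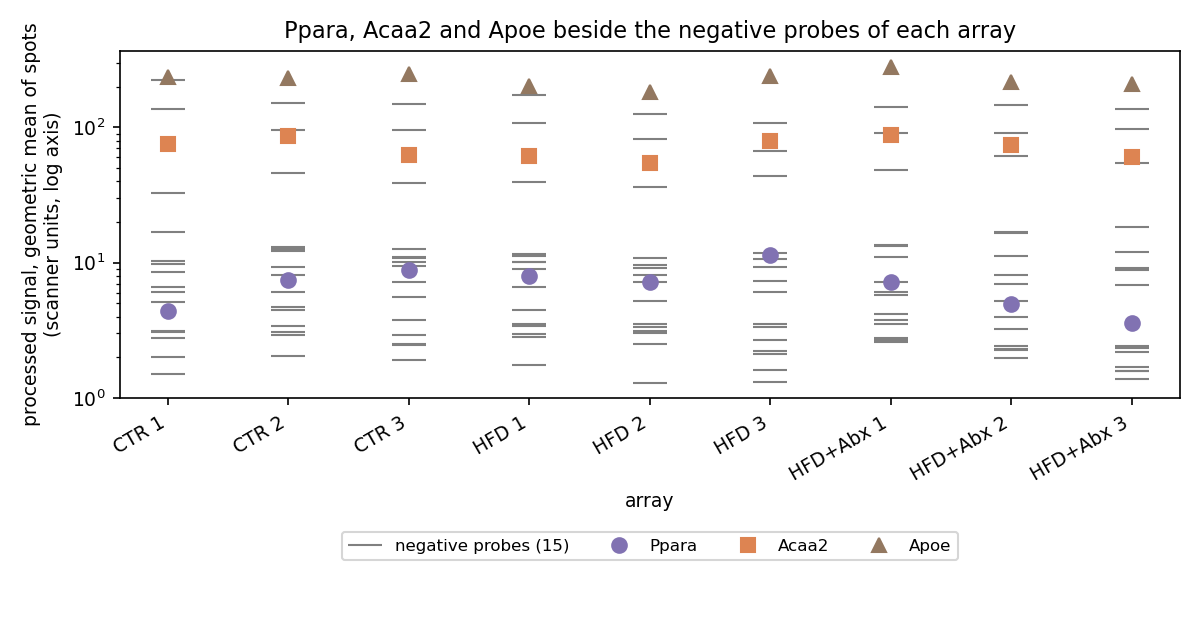
Processed signal of Ppara, Acaa2 and Apoe (geometric mean of spots, scanner units, log axis) beside the 15 negative probes on each of the 9 arrays. Apoe lies above all negative probes on each array, Acaa2 has 1 or 2 above it, and Ppara has 4 to 10 above it.

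Replicate spots and replicate arrays gave errors of different size. The SD between arrays of a group, pooled over the 3 groups, was 0.16 for Apoe, 0.23 for Acaa2 and 0.47 for Ppara. The standard error of the mean over spots of 1 array was 0.013, 0.018 and 0.11 (root mean square over arrays). Array differences within a group were thus 12.9 times the spot error for Apoe, 12.6 times for Acaa2 and 4.34 times for Ppara.

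The first comparison asked whether the genes differed under the high-fat diet. Probes detected in this sense on 3 or more arrays, 13641 in all, were fitted together with limma. A probe was called where its Benjamini-Hochberg adjusted p fell under 0.05. In HFD vs CTR none of the 3 genes passed in limma, and 0 of 13640 probes did (0% called), with 503 (3.69%) at an unadjusted p under 0.05. The groups overlapped for all 3 genes, whereas they did not for 9.28% of all probes. Ppara was 0.55 higher in HFD (SE 0.32, 95% interval -0.16 to 1.25, adjusted p = 0.999 in limma). Without CTR 1, the CTR array on which most Ppara spots were not well above background, that difference was 0.21 (SE 0.29). Without background subtraction it was 0.28 (SE 0.12), and with position column as a block it was 0.38 (SE 0.47). Acaa2 differed by -0.05 (SE 0.19, 95% interval -0.48 to 0.38) and Apoe by -0.05 (SE 0.16, 95% interval -0.42 to 0.31). As folds of probe signal these intervals run from 0.719 to 1.30 for Acaa2 and from 0.749 to 1.24 for Apoe, so a 2-fold change of the signal in either direction lies outside both (not adjusted for the number of probes).

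The second comparison asked what differed when Abx was added to the diet. In HFD+Abx vs HFD again 0 of 13641 probes passed in limma (0% called), and 1287 (9.43%) had an unadjusted p under 0.05. Ppara was the one gene of the 3 with groups that did not overlap, as held for 12.8% of all probes in either direction and for 7.37% in this direction. It was lower in HFD+Abx by a difference of -0.997 (SE 0.32, 95% interval -1.71 to -0.29), which had an unadjusted p of 0.010 and an adjusted p of 0.50 in limma. The exact permutation test on these arrays gave p = 0.10 (2-sided, HFD+Abx lower on 3 of 3 arrays), the smallest that 3 arrays against 3 can give. Acaa2 differed by -0.03 (SE 0.19, 95% interval -0.45 to 0.40) and Apoe by -0.04 (SE 0.16, 95% interval -0.40 to 0.33), with adjusted p of 0.97 and 0.95 in limma. As folds of probe signal these intervals run from 0.731 to 1.32 for Acaa2 and from 0.759 to 1.25 for Apoe, and that of Ppara from 0.307 to 0.819.

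The size of the Ppara difference in HFD+Abx vs HFD moved with the background step and with the slide. It was -0.32 (SE 0.12) without background subtraction, -0.65 (SE 0.23) with plain subtraction and -0.21 (SE 0.06) with normexp correction at an offset of 50. With slide as a block it was -0.50 (SE 0.41), which sets HFD+Abx 1 alone against HFD. With position column as a block it was -1.08 (SE 0.37). With the 47 mRNA probes that met the filter fitted and adjusted by themselves, the SE was 0.26 and Ppara passed (adjusted p = 0.021 in limma). With all 50 the SE was 0.28 and it did not (adjusted p = 0.064 in limma). In none of the other settings tried did it pass.

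The remaining contrast was that of HFD+Abx with CTR, which differ in both diet and Abx. They also differ in position column, 1 for every CTR array and 2 for every HFD+Abx array. In limma 0 of 13640 probes passed (0% called), and 1709 (12.5%) had an unadjusted p under 0.05. The groups overlapped for all 3 genes and did not for 15.3% of all probes. Ppara differed by -0.45 (SE 0.32, 95% interval -1.16 to 0.26, adjusted p = 0.54 in limma). Without background subtraction this was -0.04 (SE 0.12), and with slide as a block it was 0.05 (SE 0.41). With position column as a block it was -0.70 (SE 0.60), a value that rests on the HFD arrays, which hold both numbers. Leaving out CTR 1 gave -0.78, CTR 3 -0.22, HFD+Abx 1 -0.70 and HFD+Abx 3 -0.23. Acaa2 differed by -0.07 (SE 0.19, 95% interval -0.50 to 0.35) and Apoe by -0.09 (SE 0.16, 95% interval -0.45 to 0.27), with adjusted p of 0.88 and 0.83 in limma.

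**Figure D4:**
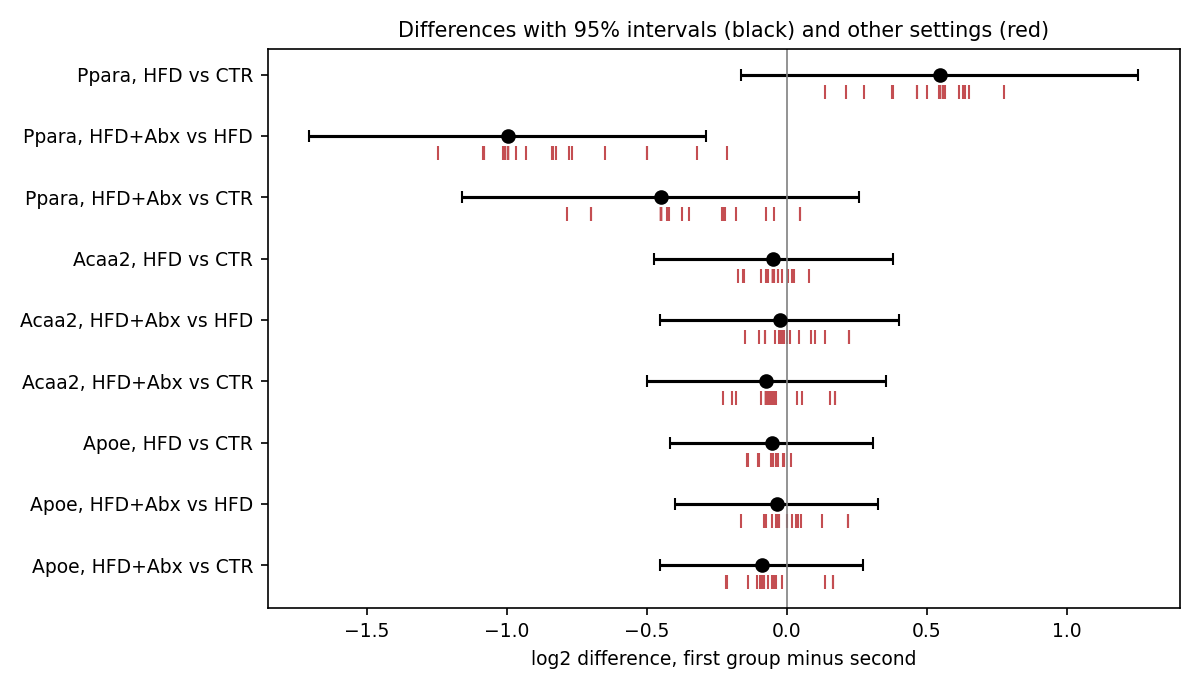
Log2 differences of Ppara, Acaa2 and Apoe between groups (first minus second), with 95% intervals from limma in black and the values under the other settings as red ticks. The interval of Ppara in HFD+Abx vs HFD (-1.71 to -0.29, not adjusted for the number of probes) does not include 0, and its other values run from -1.25 to -0.21; all other intervals include 0.

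Over all 3 groups, the exact permutation test of a single gene gave p = 0.075 for Ppara, 0.77 for Apoe and 0.87 for Acaa2. The smallest p this design allows is 0.0036. The moderated F test in limma gave adjusted p of 0.56, 0.95 and 0.97, and it called 0 of 13640 probes (0%), with 1215 (8.91%) at an unadjusted p under 0.05. In the order of means, neighbouring groups differed by less than 1 SD between arrays for Acaa2 and Apoe. For Ppara the step from HFD+Abx to CTR (0.45) was also below the pooled SD of 0.47, and the step from CTR to HFD (0.55) was just above it.

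Within-array differences between the genes do not depend on the constant by which each array is scaled. Apoe lay above Acaa2 in signal by 1.69 ± 0.28 in CTR, 1.68 ± 0.07 in HFD and 1.67 ± 0.12 in HFD+Abx (SD, n = 3). These are signals of different probes, so they do not rank the transcripts. The group means of Apoe minus Acaa2 lay within 0.02 of each other, and the exact permutation p was 0.90 to 1 over the 3 comparisons. Acaa2 lay above Ppara by 3.49 ± 0.65 in CTR, 2.89 ± 0.08 in HFD and 3.86 ± 0.23 in HFD+Abx. In HFD+Abx vs HFD this was 0.97 (exact permutation p = 0.10, the smallest possible), with Ppara near the detection limit. There, Apoe minus Cpt1a differed by -0.26 and Acaa2 minus Cpt1a by -0.25 (exact permutation p = 0.30 for each).

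Of 118 lipid genes listed for this comparison, 4 have a named probe on the array, the 3 genes and Cpt1a. Cpt1a averaged -1.84 ± 0.24 in CTR, -1.94 ± 0.01 in HFD and -1.72 ± 0.03 in HFD+Abx (SD, n = 3). Its arrays in HFD+Abx (-1.75 to -1.69) lay above those in HFD (-1.95 to -1.93), a difference of 0.22 (SE 0.15, adjusted p = 0.63 in limma), the opposite sign to Ppara. Groups did not overlap in that direction for 5.45% of all probes. Of these 4 genes, 0 passed in any comparison, and their median difference was -0.05 in HFD vs CTR, -0.03 in HFD+Abx vs HFD and -0.08 in HFD+Abx vs CTR. The medians over all probes tested were -0.02, -0.05 and -0.03.

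By Pearson's r across the 9 arrays, Acaa2 and Apoe were the closest pair, but no pair among the 4 lipid genes held up. Pearson's r of Acaa2 and Apoe was 0.64 (exact permutation p = 0.069, adjusted over 6 pairs p = 0.26) and Spearman's rho 0.53 (exact permutation p = 0.15, adjusted p = 0.36). Without CTR 2 and HFD 3, the arrays farthest from the median of Acaa2, r was 0.56, on the 7 arrays of slide 1 it was 0.58, and after each group's mean was subtracted it was 0.63. For Ppara and Apoe r was 0.61 (exact permutation p = 0.086, adjusted p = 0.26) and rho 0.50 (exact permutation p = 0.18, adjusted p = 0.36). That r was 0.52 without CTR 1 and HFD+Abx 3, 0.32 on slide 1 and 0.83 after group means were subtracted. For Ppara and Acaa2 r was 0.38 (exact permutation p = 0.32, adjusted p = 0.38) and rho 0.17 (exact permutation p = 0.68, adjusted p = 0.74). That r fell to 0.13 without CTR 1 and HFD+Abx 3, was 0.05 on slide 1 and was 0.51 after group means were subtracted. Ppara and Acaa2 thus had the lowest r and rho of these 3 pairs, but pairs were not tested against each other. The Ppara probe was well above background on only 6 of 9 arrays. With Cpt1a, rho was -0.67 for Ppara (exact permutation p = 0.059, adjusted p = 0.35), 0.42 for Acaa2 and -0.13 for Apoe. Pearson's r of Ppara and Cpt1a was -0.43 (exact permutation p = 0.25, adjusted p = 0.37). It was -0.62 without CTR 1 and HFD+Abx 3, -0.28 on slide 1 and 0.05 after group means were subtracted. Pearson's r of Acaa2 and Cpt1a was 0.46 (exact permutation p = 0.21, adjusted p = 0.37). On slide 1 that r was 0.75 and after group means were subtracted 0.64, both above the values of Acaa2 and Apoe.

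The probes most like each gene were sought among the other 43 named mRNA probes by Pearson's r over the 9 arrays, as a description of arrays that share their scaling. Acaa2 was most like Olfr166 (r = 0.91), an olfactory receptor gene, Lhx1 (r = 0.88), a homeobox gene of embryonic development, and Cep41 (r = 0.87), a centrosomal protein gene. For Acaa2 with Apoe r was 0.64 and with Cpt1a 0.46. Both were among the 43, so the 3 probes picked as highest lie above them by that choice. The Olfr166 probe ranged from 2.02 to 2.50 and the Lhx1 probe from 0.90 to 1.48 over arrays, both well above background on all 9. Acaa2 was least like Actb (r = -0.69), which encodes beta-actin, Lhfp (r = -0.67) and Rps4l (r = -0.61).

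**Figure D5:**
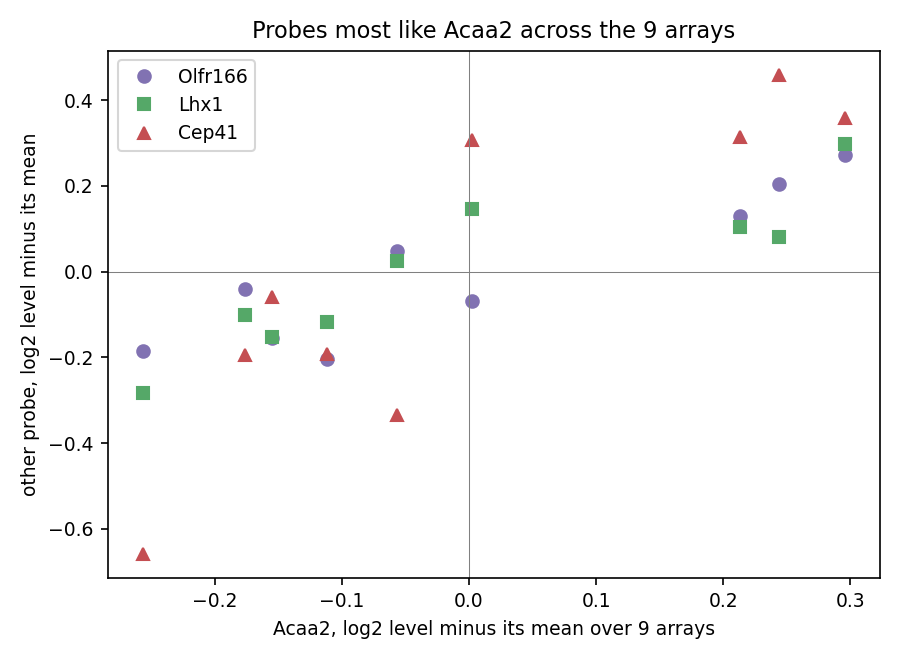
Levels of the 3 probes most like Acaa2 (Olfr166, Lhx1 and Cep41) against Acaa2 on the 9 arrays, each as log2 level minus its own mean over arrays. The 3 arrays highest for Acaa2 (CTR 2, HFD 3 and HFD+Abx 1, 1 from each group) are above the mean for all 3 probes. The probes were picked for a high r with Acaa2, so such a likeness comes with that choice.

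Apoe was most like Hyal3 (r = 0.74), a gene of the hyaluronidase family, Cep41 (r = 0.69) and Duox1 (r = 0.66), which encodes a hydrogen peroxide-producing oxidase. It was least like Hspb7 (r = -0.84), a small heat shock protein gene of muscle, Gsdmd (r = -0.65), which encodes a pore-forming protein of inflammatory cell death, and Mbp (r = -0.62), which encodes myelin basic protein. Ppara was most like Mzb1 (r = 0.75), a gene of antibody-secreting cells, Dnajc11 (r = 0.69) and Apoe (r = 0.61). It was least like Bambi (r = -0.77), which encodes a decoy receptor of TGF-beta signalling, Hspb7 (r = -0.57) and Gsdmd (r = -0.54). The Bambi probe was also faint, from -4.46 to -3.65 over arrays against -4.99 to -3.21 for Ppara. Bambi was well above background on 8 of 9 arrays and Ppara on 6. Hspb7 and Gsdmd thus stand at the low end for both Ppara and Apoe.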

How the data were processed

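Per the file headers, each array's deposited table came from Feature Extraction 11.0.1.1 of Agilent and holds intensity values by spot. Its processed signal had background removed, with no scaling across arrays. Log2 values in a second table from the authors cover 14218 circRNA probes. It lists 0 of the mRNA probes and was not used further. Genes were named from the rows' transcript accessions through a RefSeq table of GRCm38.p6, in which 44 of the 50 mRNA probes matched. The file headers name an older genome build, so no coordinates are given.

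Outlier spots were left out, spots averaged on the log2 scale and arrays scaled as the report states. A limma model (version 3.58.1, R 4.3.3; lmFit, then eBayes) held the 3 group means over all 9 arrays. The code was tested on simulated data. The genes named were the 3 members, for each the 3 most and 3 least like mRNA probes, and the lipid and marker genes with a probe. The members and lists were chosen with earlier results of these data known. Normexp was planned on the mean spot signal, which was absent here, so it was run on the median signal. Alternatives covered background, scaling, filter, spots, slide, position column, replicate number and each array left out. The number of arrays limits the precision.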

Additional observations from a re-analysis of the deposited data

How the results depend on the processing

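No difference of Acaa2 or Apoe passed the threshold under any of the 81 alternatives run for each, and their signs were not stable (16 and 11 turned). In HFD vs CTR, scaling to the negative probes gave 0.019 for Acaa2 and 0.013 for Apoe. In HFD+Abx vs CTR that scaling gave 0.15 and 0.14, and both the slide block and slide 1 alone gave 0.17 and 0.16. In HFD+Abx vs HFD it gave 0.14 and 0.12, the median in place of the 75th percentile 0.042 and 0.031, and both slide settings 0.22 and 0.22. Quantile normalisation gave 0.011 for Acaa2 there. With 1 array left out, Acaa2 ranged from -0.17 to 0.079 in HFD vs CTR, from -0.20 to 0.053 in HFD+Abx vs CTR and from -0.15 to 0.10 in HFD+Abx vs HFD, and Apoe, in the same order, from -0.14 (without HFD 3) to -0.0098 (without HFD 2), from -0.22 (without HFD+Abx 1) to -0.017 (without HFD+Abx 2) and from -0.16 (without HFD+Abx 1) to 0.051 (without HFD 3).

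Ppara kept its sign in HFD vs CTR (0.14 to 0.78) and in HFD+Abx vs HFD (-1.25 to -0.21) under all 26 alternatives of each. Several of these could not move the difference, such as other filters, the replicate block or an array of the third group left out. As HFD+Abx and HFD did not overlap, leaving out 1 array could not turn that sign either. In HFD+Abx vs CTR Ppara was 0.045 with the slide block and on slide 1 alone. It passed in HFD+Abx vs HFD only with the filtered mRNA probes alone (difference -0.997, adjusted p = 0.021). There the difference was the same, the SE fell from 0.32 to 0.26 and the unadjusted p from 0.010 to 0.00074, and the adjustment ran over 47 probes. Its exact permutation p over 3 groups was 0.032 with normexp, and the cause was not tested. Filtering to probes above background on all 9 arrays leaves out Ppara. After each group's mean was subtracted, correlations of same-numbered arrays ran from -0.37 to 0.39. Arrays of different numbers were not compared, so this does not settle whether replicate numbers pair the arrays. With the replicate block none of the 3 genes passed (Ppara in HFD+Abx vs HFD -0.997, SE 0.35, adjusted p = 0.43 in limma). Plain subtraction and the unfiltered mRNA fit were chosen after seeing the data. Ppara's signal over background limits all of its values.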
